A study of Mus musculus with 9 samples.

Results

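Genes that mark entry into the red cell lineage were followed across bone marrow stem and progenitor cells of parabiotic mice, which are animals joined surgically so that they share blood. The set holds 10 genes, chosen by name with earlier results of these data known, of the 14461 genes in the deposited table. They are the transcription factors Gata1 and Klf1, the erythropoietin receptor Epor, the transferrin receptor Tfrc, the carbonic anhydrases Car1 and Car2, the red cell surface protein Ermap, and the adult globins Hba-a1, Hbb-bs and Hbb-bt. All 10 were in the table and all 10 passed the filter on low values, which asked for a value of at least 1 in at least 3 libraries.

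Each library was made from sorted LSK cells, marrow cells negative for lineage markers and positive for both Sca-1 and c-Kit, with SMART-Seq v4 cDNA amplification and Nextera XT, a chemistry that does not record strand. The 3 circulating libraries and the 3 irradiated libraries carry the strain label C57BL/6, and the 3 endogenous libraries carry B6SJL CD45.1. In any comparison with endogenous cells the strain label changes with the group, so the effects of strain and group cannot be told apart. By the series design the circulating cells had travelled through the blood to the marrow of an irradiated partner, while the irradiated and endogenous cells are described by those words alone, and all animals were kept free of specific pathogens. Library titles hold codes whose meaning is not stated: DD1, DD2 and DD3 occur once in circulating and once in irradiated titles of equal number, SJ1 to SJ3 occur in endogenous titles, and LSK1 marks circulating and endogenous while LSK2 marks irradiated titles. Nor do the labels give the radiation dose, or say that each library had its own mouse, so a p-value here reflects how far these libraries scatter, part of which may be technical. Whether the strain label of circulating libraries names the host or the origin of the sorted cells is likewise not given. Strain may therefore also differ between circulating and irradiated cells.

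The libraries held between 14065855 and 27012345 recovered estimated counts, the fewest in circulating replicate 2, where 560 genes had a count of 0, against 15 to 206 in the other libraries. Of the genes that define the sort, Kit lay between 328 and 410 in circulating, between 562 and 622 in irradiated and between 737 and 1011 in endogenous libraries, and Ly6a, which encodes Sca-1, lay between 127 and 146 in circulating, between 159 and 202 in irradiated and between 169 and 194 in endogenous libraries, in the deposited normalised values. Kit fell in circulating relative to endogenous libraries (log2 fold change -1.20, adjusted p = 0.00257, limma).

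Red cells arise from multipotent progenitors through stages that first switch on lineage regulators and surface receptors and only later fill with haemoglobin. GATA1 is the zinc-finger factor that drives erythroid and megakaryocytic differentiation, and KLF1 is the erythroid factor that activates the adult beta-globin gene and many red cell genes. Erythropoietin acts through EPOR on committed progenitors, TFRC brings in transferrin-bound iron for haem, and carbonic anhydrases I and II interconvert carbon dioxide and bicarbonate. In this field, low levels of such transcripts in uncommitted cells are often spoken of as erythroid priming.

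Promoter sequences of Gata1, Klf1, Epor and Hbb-bs are shown because these genes stand for the regulators, the receptor and the end product of the programme. They run from 250 bases before to 50 bases after the RefSeq start of the gene on build GRCm38.p6, 5' to 3' on the gene's own strand, at chrX:7967861-7968160 (minus strand) for Gata1, chr8:84901732-84902031 (plus strand) for Klf1, chr9:21963527-21963826 (minus strand) for Epor and chr7:103827879-103828178 (minus strand) for Hbb-bs. Capitals mark the letters that match a GATA motif (AGATAA or AGATAG, and likewise TGATAA or TGATAG) or a KLF motif (CCNCNCCC), each searched on both strands, with overlapping matches joined.
Gata1: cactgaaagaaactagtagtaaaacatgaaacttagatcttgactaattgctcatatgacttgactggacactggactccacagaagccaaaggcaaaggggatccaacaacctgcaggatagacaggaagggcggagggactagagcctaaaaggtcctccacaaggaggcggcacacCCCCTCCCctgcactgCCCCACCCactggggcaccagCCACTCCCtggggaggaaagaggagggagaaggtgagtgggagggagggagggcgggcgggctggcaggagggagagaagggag
Klf1: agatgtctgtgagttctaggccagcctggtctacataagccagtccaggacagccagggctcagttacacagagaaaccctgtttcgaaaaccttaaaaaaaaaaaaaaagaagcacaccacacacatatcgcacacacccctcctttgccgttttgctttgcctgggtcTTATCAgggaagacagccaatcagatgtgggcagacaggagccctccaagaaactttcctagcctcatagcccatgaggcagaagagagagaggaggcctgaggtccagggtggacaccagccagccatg
Epor: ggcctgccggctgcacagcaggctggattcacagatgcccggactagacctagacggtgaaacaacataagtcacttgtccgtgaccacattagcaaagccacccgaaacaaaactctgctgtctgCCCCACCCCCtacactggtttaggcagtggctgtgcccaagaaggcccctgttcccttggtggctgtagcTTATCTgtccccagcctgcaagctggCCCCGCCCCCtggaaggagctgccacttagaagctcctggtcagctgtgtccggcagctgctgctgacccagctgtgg
Hbb-bs: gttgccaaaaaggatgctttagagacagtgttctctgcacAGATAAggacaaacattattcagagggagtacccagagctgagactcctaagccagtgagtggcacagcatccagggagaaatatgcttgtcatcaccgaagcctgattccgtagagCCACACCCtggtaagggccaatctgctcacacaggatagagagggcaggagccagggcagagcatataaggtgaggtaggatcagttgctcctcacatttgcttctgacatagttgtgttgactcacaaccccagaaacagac

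A GATA motif began 80 bases before the start of Klf1, 54 before Epor and 210 before Hbb-bs. KLF motifs began 71, 55 and 34 bases before the start of Gata1, 93 before Hbb-bs, and 124, 122, 28 and 26 before Epor, where the first pair overlap each other and so do the last. RefSeq entries were matched for 8 of the 10 genes, with 2 entries for Tfrc of which the first was counted. A GATA motif was found in 5 of the 8 (Klf1, Epor, Ermap, Hba-a1 and Hbb-bs), a KLF motif in 5 of 8 (Gata1, Epor, Tfrc, Hbb-bs and Hbb-bt), and both in 2 of 8 (Epor and Hbb-bs). Among 27025 RefSeq promoters of the same length, 30.2% held the GATA motif, 49.1% the KLF motif and 10.3% both. These matches describe letters in the window and were not tested for binding. The Gata1 window lies inside the span that GENCODE gives the gene, chrX:7959260-7978071.

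The globin genes come in near-identical copies, and the bases that tell them apart bear on how their reads could be assigned. Over 444 coding bases Hbb-bs and Hbb-bt were identical at 443 (99.8%), and over 429 coding bases Hba-a1 and Hba-a2 were identical at 428 (99.8%). The substitutions are C417T from Hbb-bs to Hbb-bt and C381T from Hba-a1 to Hba-a2, counted from 1 at the A of the start codon, and the differing base is the capital in the 61-base coding windows that follow (chromosome 7 for the Hbb genes and 11 for the Hba genes).
Hbb-bs: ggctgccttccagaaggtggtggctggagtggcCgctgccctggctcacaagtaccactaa
Hbb-bt: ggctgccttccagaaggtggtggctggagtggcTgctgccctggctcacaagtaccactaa
Hba-a1: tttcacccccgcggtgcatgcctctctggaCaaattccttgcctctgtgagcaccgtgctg
Hba-a2: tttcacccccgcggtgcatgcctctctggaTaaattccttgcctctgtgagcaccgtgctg

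Of all 31-base words in the transcripts, 66.9% of those of Hbb-bs also occurred in Hbb-bt and 71.3% of those of Hba-a1 also occurred in Hba-a2. Values of each single globin copy are therefore uncertain, and sums over each pair are given with them. No exon of the 10 genes shared a base with an exon of another annotated gene.

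The erythroid regulators Gata1 and Klf1 rose in circulating relative to endogenous LSK cells (adjusted p = 0.0409 and 0.0435, limma). Their log2 fold changes were 1.90 and 2.11 on the log2(value + 1) scale. Both calls lay near the threshold, and each was lost in 12 of 17 alternative settings. The other 8 genes were not called at an adjusted p under 0.05 in limma. In bulk RNA, fewer cells that contain a transcript and less of it per cell cannot be told apart, which holds for every gene here. Between circulating and irradiated cells none of the 10 was called. Between irradiated and endogenous cells none was called either, although 4 genes had all irradiated libraries above all endogenous ones. The values varied widely within the circulating group, and circulating replicate 3 was the highest of all 9 libraries for 6 of the 10 genes.

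Gata1 (ENSMUSG00000031162, chrX:7959260-7978071 on GRCm38, minus strand) had deposited values of 19.1, 58.7 and 85.4 in circulating libraries, 24.0, 36 and 63.7 in irradiated libraries, and 15.7, 10.3 and 9.59 in endogenous libraries, in the order of replicates 1 to 3. Every circulating and every irradiated library lay above the highest endogenous library, and the circulating and irradiated ranges overlapped. The group means were 54.4 ± 33.3 in circulating, 41.2 ± 20.4 in irradiated and 11.9 ± 3.34 in endogenous libraries (SD, n = 3 each). The log2 fold change of circulating over endogenous libraries was 1.90 (SE 0.50, adjusted p = 0.0409), and that of irradiated over endogenous libraries was 1.63 (SE 0.50, adjusted p = 0.156). The call lay near the threshold: without circulating replicate 3 the fold change was 1.46 with an adjusted p of 0.110.

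Klf1 (ENSMUSG00000054191, chr8:84901928-84905291, plus strand) had values of 14.8, 15.3 and 74.7 in circulating libraries, 13.5, 13.3 and 30.5 in irradiated libraries, and 6.01, 3.59 and 6.43 in endogenous libraries. Replicate 3 stood out in both the circulating and the irradiated group, and neither group overlapped the endogenous libraries. Klf1 averaged 34.9 ± 34.4 in circulating, 19.1 ± 9.88 in irradiated and 5.35 ± 1.53 in endogenous libraries (SD, n = 3 each). It rose by 2.11 on the log2 scale in circulating over endogenous libraries (SE 0.57, adjusted p = 0.0435), and irradiated over endogenous libraries gave 1.59 (SE 0.57, adjusted p = 0.213). Without circulating replicate 3 the value was 1.37, with an adjusted p of 0.0861.

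Over 17 alternative settings both genes kept a positive fold change in circulating over endogenous libraries, and each lost its call in 12. For Gata1 the value ran from 1.46 to 2.51 with adjusted p from 0.00379 to 0.123, and for Klf1 from 1.37 to 2.499 with adjusted p from 0.02 to 0.131. Leaving out any endogenous library ended both calls: the adjusted p of Gata1 was then 0.0819, 0.112 and 0.111, and that of Klf1 was 0.109, 0.131 and 0.0874, without endogenous replicates 1, 2 and 3. Without irradiated replicates 1 and 2 in turn Gata1 had 0.0530 and 0.0624 and Klf1 had 0.0665 and 0.0636. Klf1 was also lost without irradiated replicate 3 (adjusted p = 0.0560), and Gata1 without circulating replicate 2 (adjusted p = 0.0827).

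Epor (ENSMUSG00000006235, chr9:21958897-21963506, minus strand) had values of 3.37, 13.8 and 30.4 in circulating libraries, 8.11, 7.17 and 12.7 in irradiated libraries, and 5.12, 2.54 and 4.70 in endogenous libraries. Circulating replicate 1 fell inside the endogenous range, whereas all irradiated libraries lay above it. Its fold change on the log2 scale was 1.35 in circulating over endogenous libraries (SE 0.60, adjusted p = 0.179) and 1.02 in irradiated over endogenous libraries (SE 0.60, adjusted p = 0.477). Without circulating replicate 1 the first of these became 2.11 and was called (adjusted p = 0.0115).

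Tfrc (ENSMUSG00000022797, chr16:32608920-32632794, plus strand) had values of 89.9, 108 and 226 in circulating libraries, 101, 67.3 and 101 in irradiated libraries, and 70.2, 59.9 and 55.2 in endogenous libraries. All circulating libraries lay above all endogenous ones, and irradiated replicate 2 lay within the endogenous range. The fold change of circulating over endogenous libraries was 1.07 on the log2 scale (SE 0.30), and its adjusted p of 0.0501 fell just outside the threshold. Without circulating replicate 1 it was 1.33 (adjusted p = 0.0154), and without circulating replicate 3 it was 0.67 (adjusted p = 0.0942).

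**Figure D1:**
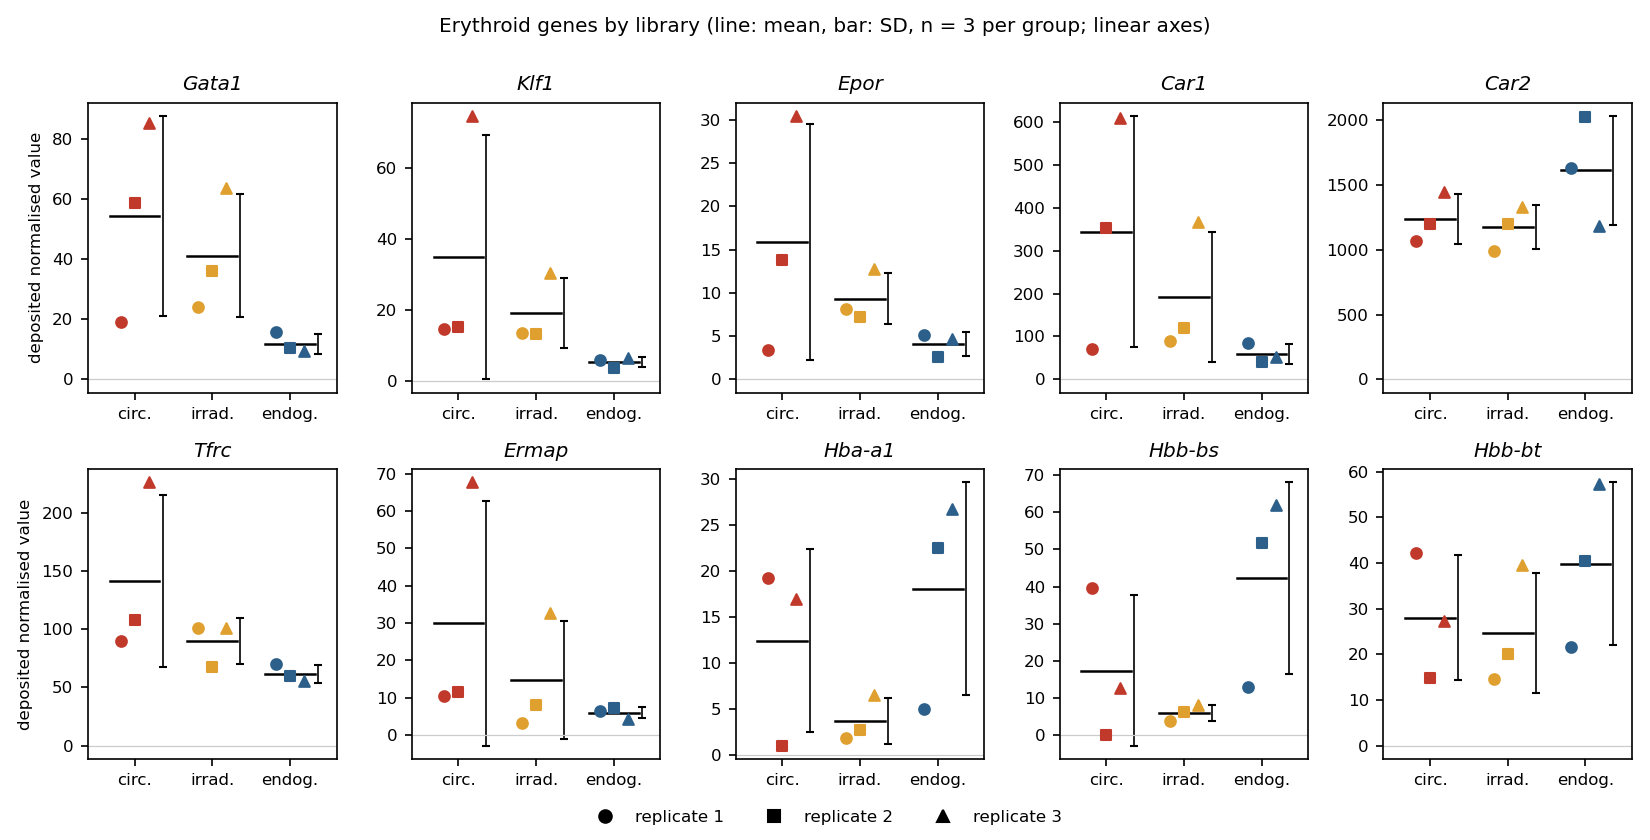
Deposited normalised value (y axes, linear, starting near 0) of each erythroid gene in the 3 circulating, 3 irradiated and 3 endogenous libraries. Points are libraries with symbols by replicate number, lines are group means and bars are SD. For Gata1 and Klf1 the endogenous libraries, 9.59 to 15.7 and 3.59 to 6.43, lie below all others, and the triangle of circulating replicate 3 is the highest point in 6 panels.

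The carbonic anhydrases differed from each other. Car1 (ENSMUSG00000027556, chr3:14766216-14808368, minus strand), an enzyme used as a marker of early erythroid progenitors, had values of 70.8, 353 and 610 in circulating libraries, 90.0, 121 and 366 in irradiated libraries, and 85.8, 39.5 and 52.0 in endogenous libraries. Its circulating libraries spanned 8.61-fold, and replicate 1 fell inside the endogenous range, while all irradiated libraries were above it, the lowest of them by a narrow margin. On the log2 scale the fold change was 2.13 for circulating over endogenous (SE 0.82, adjusted p = 0.147) and 1.48 for irradiated over endogenous libraries (SE 0.82, adjusted p = 0.464). Without circulating replicate 1 the first was 3.02 and was called (adjusted p = 0.00625).

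Car2 (ENSMUSG00000027562, chr3:14886273-14900770, plus strand), the widely expressed cytosolic form, had values of 1065, 1202 and 1446 in circulating libraries, 994, 1197 and 1331 in irradiated libraries, and 1630, 2022 and 1183 in endogenous libraries. It was the most abundant of the 10 genes in each group, and its groups overlapped. Per kilobase of exon its level averaged 511 in circulating, 485 in irradiated and 666 in endogenous libraries, against 276, 154 and 47.4 for Car1 in the same groups. Its log2 fold changes were -0.36 in circulating over endogenous (95% interval -0.77 to 0.052, adjusted p = 0.249) and -0.43 in irradiated over endogenous libraries (adjusted p = 0.307).

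Ermap (ENSMUSG00000028644, chr4:119175457-119190011, minus strand), which encodes an erythroid membrane protein that carries the Scianna blood group in humans, had values of 10.5, 11.5 and 67.8 in circulating libraries, 3.28, 8.08 and 32.7 in irradiated libraries, and 6.43, 7.17 and 4.24 in endogenous libraries. The circulating libraries lay above the endogenous ones, 2 of them by a small margin, and the irradiated libraries reached below and above the endogenous range. The log2 fold change was 1.65 in circulating over endogenous libraries (SE 0.78, adjusted p = 0.201). In irradiated over endogenous libraries it was 0.68 (adjusted p = 0.747), and without irradiated replicate 3 it was -0.13.

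The globins were lowest in irradiated libraries by group mean and varied within groups. The highest library over the lowest was 2.09-fold for Hbb-bs in irradiated libraries, 18.4-fold for Hba-a1 in circulating libraries and at least 150.6-fold for Hbb-bs in circulating libraries, where the lowest had a count of 0 and 3 counts of that library were put in its place. Hba-a1 (ENSMUSG00000069919, chr11:32283511-32284465, plus strand), an alpha-globin gene, had values of 19.3, 1.05 and 16.9 in circulating libraries, 1.85, 2.72 and 6.504 in irradiated libraries, and 5.01, 22.5 and 26.7 in endogenous libraries. Circulating replicate 2 was the lowest of the 9, and the irradiated and endogenous ranges overlapped. The log2 fold change was -0.80 in circulating over endogenous libraries (SE 0.85, adjusted p = 0.583) and -1.87 in irradiated over endogenous libraries (SE 0.85, adjusted p = 0.334).

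Hbb-bs (ENSMUSG00000052305, chr7:103826534-103828096, minus strand), an adult beta-globin gene, had values of 39.6, 0.0376 and 12.7 in circulating libraries, 3.93, 6.19 and 8.22 in irradiated libraries, and 13.1, 51.8 and 62.0 in endogenous libraries. The value in circulating replicate 2 stands for a recovered count of 0, which allows a value of up to 0.263 (3 counts), and all irradiated libraries lay below all endogenous ones. The log2 fold change was -2.39 in irradiated over endogenous (SE 1.08, adjusted p = 0.335) and -2.11 in circulating over endogenous libraries (SE 1.08, adjusted p = 0.241). Without circulating replicate 1 the value of circulating over endogenous libraries was -3.26 (adjusted p = 0.0428), and without circulating replicate 2 it was -0.61 (adjusted p = 0.582).

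Hbb-bt (ENSMUSG00000073940, chr7:103812524-103813996, minus strand), its neighbouring copy, had values of 42.1, 14.8 and 27.2 in circulating libraries, 14.6, 20.02 and 39.6 in irradiated libraries, and 21.6, 40.5 and 57.4 in endogenous libraries. The 3 groups overlapped, and circulating replicate 2, with no Hbb-bs count, held 197 recovered counts of Hbb-bt. Its log2 fold change was -0.50 in circulating over endogenous (adjusted p = 0.518) and -0.68 in irradiated over endogenous libraries (adjusted p = 0.549).

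Sums over the copies do not depend on how reads were split within a pair. Hbb-bs plus Hbb-bt came to 45.5 ± 33.8 in circulating, 30.9 ± 15.2 in irradiated and 82.1 ± 43.2 in endogenous libraries (SD, n = 3 each). Hba-a1 plus Hba-a2 came to 62.6 ± 48.5 in circulating, 13.7 ± 9.52 in irradiated and 82.3 ± 50.3 in endogenous libraries (SD, n = 3 each). The share of Hbb-bs in its pair was 0.252% in circulating replicate 2 and between 17.2% and 56.1% in the other 8 libraries. The alpha sums of irradiated libraries, 5.55 to 24.2, lay below the endogenous ones, 24.9 to 119, by a narrow margin, and the beta sums of these groups overlapped.

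Read as a list, 2 of the 10 genes rose and 0 fell in circulating over endogenous libraries. Across all 13771 genes tested, 8.63% were called in this comparison and 5.33% were called as higher. The median log2 fold change of the 10 was 1.21, against -0.041 over all genes tested, with 6 positive and 4 negative, and it was 0.68 without circulating replicate 3. In 4 of the 10 (Gata1, Klf1, Tfrc and Ermap) all circulating libraries lay above all endogenous ones, beside 14.6% of all genes tested. At an unadjusted p under 0.05 there were 5 of the 10 (Gata1, Klf1, Epor, Car1 and Tfrc), all higher, beside 26.7% of all genes tested, or 14.2% counting only the higher ones.

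In circulating over irradiated libraries 0 of the 10 genes were called by limma, 0 reached an unadjusted p under 0.05, and 0 were called by voom on recovered counts. In this comparison 0.0290% of all genes tested were called, which is 4 genes. Every fold change was positive, from 0.075 for Car2 to 1.08 for Hba-a1, with a median of 0.43 (-0.022 when circulating replicate 3 was left out, 0.85 when circulating replicate 1 was, and 0.25 when irradiated replicate 1 was) against -0.024 over all genes, and every gene's groups overlapped, whereas 16.7% of all genes had groups that did not. The 95% intervals were wide, as for Gata1 (0.27, -0.83 to 1.36) and Klf1 (0.52, -0.72 to 1.77), so differences of these sizes were not detectable in 3 libraries against 3. Without circulating replicate 3 the signs of Gata1 (-0.17), Klf1 (-0.22), Epor (-0.33), Car2 (-0.043) and Hbb-bs (-0.086) turned, and Car1 was at 0.

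In irradiated over endogenous libraries 0 of the 10 genes were called by limma, beside 0.603% of all genes tested (83 genes), and 0 by voom. At an unadjusted p under 0.05 there were 5, with Gata1 and Klf1 higher and Car2, Hba-a1 and Hbb-bs lower, beside 14.9% of all genes tested. The groups did not overlap for Gata1, Klf1, Epor and Car1, which were higher (15.2% of all genes), and for Hbb-bs, which was lower (12.5% of all genes). The median was 0.60 against -0.009 over all genes, and without irradiated replicate 3 it was 0.14. With only the irradiated and endogenous libraries in the fit, Gata1 (adjusted p = 0.0252), Klf1 (adjusted p = 0.0344) and Hbb-bs (adjusted p = 0.0267) were called. Over all genes tested that fit also called many more than the 83 of the main fit, so the share of 0.603% does not apply to it. Its number of calls is given with the alternatives below. This comparison and circulating over endogenous share the 3 endogenous libraries, so their values are not independent of each other.

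**Figure D2:**
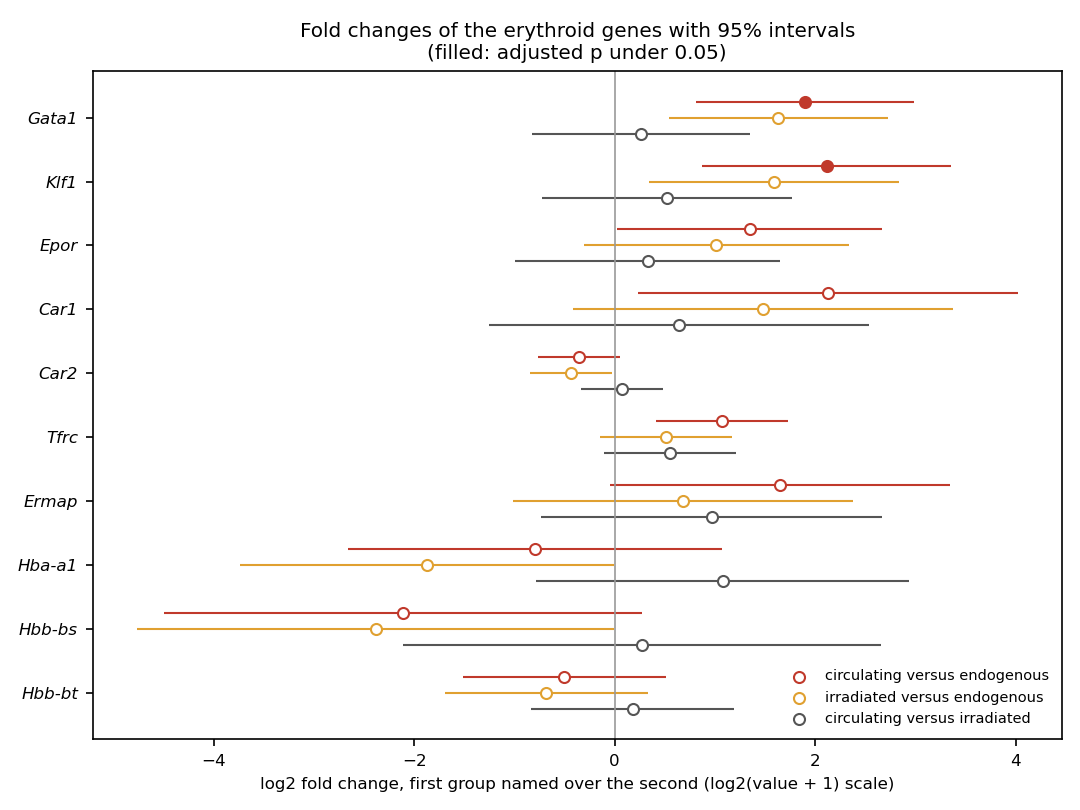
Log2 fold change on the log2(value + 1) scale (x axis) of each erythroid gene (rows) in 3 comparisons, with 95% intervals from the limma fit over all 9 libraries. Filled points have an adjusted p under 0.05: these are Gata1 (1.90) and Klf1 (2.11) in circulating over endogenous libraries, and the globin rows lie left of 0 in both comparisons with endogenous libraries.

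The 10 genes split by how they varied across libraries. Over the 9 libraries Gata1, Klf1, Epor, Car1, Tfrc and Ermap had Pearson r between 0.741 and 0.971 with each other on the log2(value + 1) scale, and Hba-a1, Hbb-bs and Hbb-bt had r between 0.858 and 0.923. Between these sets r ran from -0.673 to 0.176, and Car2 had r between -0.296 and 0.203 with the first set. These are descriptions over 9 libraries that share group, depth and sort. Gata1 and Car1 had the highest r of any pair, 0.971.

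Replicate 3 was high in both groups that carry the DD codes. In the circulating group replicate 3 was the highest for 7 of the 10 genes (all but the globins), and 35.2% of all genes tested peaked there. In the irradiated group replicate 3 was the highest for 10 of 10, and 34.0% of all genes did so. Across all 9 libraries circulating replicate 3 was the highest for Gata1, Klf1, Epor, Car1, Tfrc and Ermap, and 19.0% of all genes peaked in it. Circulating replicate 1 was the lowest of its group for the same 7 genes, and circulating replicate 2 for the 3 globins. Circulating replicate 3 and irradiated replicate 3 share the code DD3. Without both of them 0 of the 10 genes were called in circulating over endogenous libraries, and the values were 1.46 for Gata1 (adjusted p = 0.123) and 1.37 for Klf1 (adjusted p = 0.0884).

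**Figure D3:**
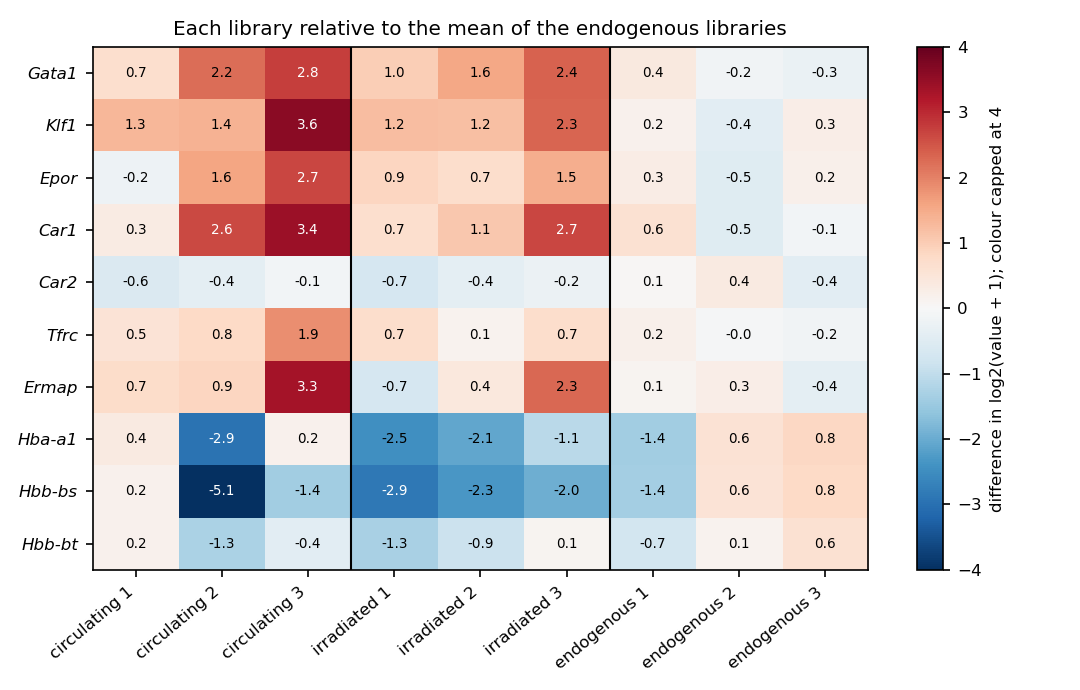
Difference in log2(value + 1) between each library (columns) and the mean of the 3 endogenous libraries, for each erythroid gene (rows). Red is higher, blue is lower, and colour is capped at 4. Circulating replicate 3 reads 3.61 for Klf1, 3.42 for Car1 and 3.33 for Ermap. Irradiated replicate 3 is the darkest irradiated column for those genes. The globin rows are blue in circulating replicate 2, in irradiated replicates 1 and 2 and in endogenous replicate 1.

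Per kilobase of exon the order of levels changed between groups. In circulating libraries the mean values per kilobase were 511 for Car2, 276 for Car1, 39.9 for Hbb-bt, 22.8 for Tfrc and for Klf1, 22.7 for Hbb-bs, 22.3 for Gata1, 15.3 for Hba-a1, 7.97 for Epor and 5.64 for Ermap. In irradiated libraries Car2 (485), Car1 (154) and Hbb-bt (35.2) led, and Hba-a1 (4.55) and Epor (4.69) were lower than Hbb-bs (7.96). In endogenous libraries Car2 (666) was followed by Hbb-bt (56.6), Hbb-bs (55.0), Car1 (47.4) and Hba-a1 (22.3), and Gata1 (4.87), Klf1 (3.49), Epor (2.07) and Ermap (1.12) were the lowest. In circulating libraries the ranges of every pair of neighbours in this order overlapped, Car2 and Car1 included. In irradiated libraries Car2 lay above Car1, and Car1 above Hbb-bt, without overlap, and in endogenous libraries Car2 lay above Hbb-bt and Tfrc above Gata1 without overlap.

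Genes of the same pathway were read from lists of 105 further genes tested, in 9 lists. In circulating over endogenous libraries 7 rose and 4 fell, which is 10.5% of them beside 8.63% of all genes tested. At an unadjusted p under 0.05 there were 35, or 33.3% beside 26.7% of all genes, and the median was 0.13. The haem synthesis list had 3 of 14 that rose, beside 5.33% of all genes, and 0 that fell, with a median of 0.36. Alas1, the housekeeping form of the first and rate-limiting enzyme of haem synthesis, had values of 367, 393 and 995 in circulating libraries, 260, 185 and 365 in irradiated libraries, and 113, 84.4 and 99.7 in endogenous libraries. It rose by 2.40 on the log2 scale in circulating over endogenous libraries (SE 0.35, adjusted p = 0.00584) and kept its call in all 17 alternatives. Tmem14c, a mitochondrial protein needed for porphyrin transport in red cell precursors, rose by 0.89 (adjusted p = 0.0273), and this call was lost without circulating replicate 3 (0.68, adjusted p = 0.0658). It was also lost without endogenous replicate 1 (adjusted p = 0.0953) and without endogenous replicate 2 (adjusted p = 0.0789). In all, it was lost in 5 of 17 alternatives. Alas2, the erythroid form of that first enzyme, was between 0.0376 and 3.14 in circulating, between 1.10 and 2.31 in irradiated, and between 0.0409 and 7.05 in endogenous libraries.

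In circulating over endogenous libraries 5.33% of all genes tested were called higher. Among red cell membrane and blood group genes 1 of 17 rose and 0 fell, with a median of 0.53. That gene was Kel, which encodes the Kell blood group protein, with 5.29, 23.2 and 27.5 in circulating libraries, 1.77, 0.310 and 9.97 in irradiated libraries, and 0.214, 0.992 and 0.0967 in endogenous libraries. Its log2 fold change of circulating over endogenous libraries was 3.56 (SE 0.75, adjusted p = 0.0206). The call was lost in 6 of 17 alternatives, among them sample weights and voom. The others were the fits without circulating replicate 3 (3.15, adjusted p = 0.0618) and without endogenous replicates 1, 2 and 3 in turn (adjusted p = 0.0726, 0.0538 and 0.0659). Its endogenous values all lay under 1, the value that the filter asked for.

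The list of other genes known from erythroid progenitors had 2 of 20 that rose in circulating over endogenous libraries and 0 that fell. Of all genes tested 5.33% were called higher there, and the median of the list was 1.16. Cd36, a fatty acid receptor found on early red cell precursors and on other cells, rose by 3.06 (SE 0.44, adjusted p = 0.00584), at 23.7, 66.1 and 19.5 in circulating and 3.09, 3.86 and 1.95 in endogenous libraries. Rgcc, a regulator of the cell cycle, rose by 2.57 (SE 0.40, adjusted p = 0.00753), at 58.2, 119 and 191 in circulating and 25.4, 13.3 and 16.5 in endogenous libraries. For both genes no circulating library overlapped an endogenous one, and both calls held in all 17 alternatives. Without circulating replicate 3 the list had 3 that rose and 1 that fell, and without circulating replicate 1 it had 7 and 0. Calls over all genes moved too. They numbered 1189 in either direction in the main fit and 2230 without circulating replicate 1, and were fewer than 1189 without circulating replicate 3.

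Ctse, the aspartic protease cathepsin E of that list, set irradiated libraries apart. It had values of 648, 508 and 713 in circulating libraries, 45.4, 63.4 and 75.7 in irradiated libraries, and 711, 831 and 735 in endogenous libraries. It was higher by 3.33 on the log2 scale in circulating over irradiated (SE 0.19, adjusted p = 7.82e-06) and fell by 3.63 in irradiated over endogenous libraries (SE 0.19, adjusted p = 4.3e-06). Circulating and irradiated libraries carry the same strain label, and endogenous libraries another. Whether the circulating label names the host or the origin of the cells is not given, and the part of strain was not tested. Ctse was the only gene of the 9 lists called in either of these comparisons, where 19 genes each (18.1%) reached an unadjusted p under 0.05, beside 11.4% of all genes in circulating over irradiated and 14.9% in irradiated over endogenous libraries, and voom on recovered counts called 1 gene of the 105 in each.

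Of the GATA1 partners and related factors 0 of 17 rose and 3 fell in circulating over endogenous libraries, where 5.33% of all genes were called higher and 8.63% in either direction. Their median was -0.44, and without circulating replicate 1 there was 1 that rose and 4 that fell. Over all genes tested 2230 were called without that library, against 1189 in the main fit. Cbfa2t3, a corepressor that binds the GATA1 and TAL1 complex, was at 22.0, 24.9 and 19.8 in circulating and 60.2, 47.3 and 68.7 in endogenous libraries and fell by 1.35 on the log2 scale (adjusted p = 0.006). Lmo2, the bridging protein of that complex, fell by 0.59 (adjusted p = 0.0284), and Sox6, a repressor of embryonic globin genes, fell by 1.33 (SE 0.36, adjusted p = 0.0452). Cbfa2t3 kept its call in all 17 alternatives, and without circulating replicate 3 it was the only 1 of the 3 still called, with adjusted p of 0.0691 for Lmo2 and 0.116 for Sox6. Lmo2 was also lost without circulating replicate 2 (0.0528) and endogenous replicates 1 (0.108) and 3 (0.0853), in 7 of 17 alternatives in all. Sox6 was also lost without endogenous replicates 1 (0.161) and 2 (0.130) and without any irradiated library (0.0685 to 0.0733). In all, Sox6 lost its call in 10 of 17 alternatives. Gfi1b, a repressor needed for red cells and platelets, was not called (0.68, adjusted p = 0.216), although its r with Epor, 0.979, was the highest of any gene.

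Of the erythropoietin signalling genes 1 of 12 rose and 1 fell in circulating over endogenous libraries, with a median of -0.34. Across all genes tested 8.63% were called there in either direction, and 5.33% as higher. Cish, a feedback inhibitor induced by STAT5, was at 2.21, 9.80 and 5.92 in circulating, 10.4, 14.8 and 13.2 in irradiated, and 38.3, 24.4 and 24.9 in endogenous libraries, and fell by 2.25 in circulating over endogenous libraries (SE 0.42, adjusted p = 0.0128). Its call was lost without endogenous replicate 1 (adjusted p = 0.0591) and without both replicates 3 of the DD3 code (adjusted p = 0.0572). Ptpn6, a phosphatase that dampens signalling from the receptor, rose by 0.41 (adjusted p = 0.0406), and this call was lost in 13 of 17 alternatives, with adjusted p from 0.0615 to 0.118 when any library other than circulating replicate 1 was left out.

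Iron genes gave 0 calls of 15 in limma in circulating over endogenous libraries, with a median of 0.049. At an unadjusted p under 0.05 there were 4, beside 26.7% of all genes tested, and voom called 0. In the iron list 2 rose and 1 fell without circulating replicate 1, 2 fell with library-size scaling, and 1 rose with the replicate block. The most abundant were the ferritin chains, with Fth1 averaging 1274 ± 69.9 in circulating, 1395 ± 84.9 in irradiated and 1233 ± 80.2 in endogenous libraries (SD, n = 3 each). Regulators of opposing lineages gave 0 calls of 6 (4 unadjusted, 0 by voom). Without circulating replicate 1, 3 of the 6 rose, and with library-size scaling 1 fell. Leaving out that library also raised the calls over all genes tested from 1189 to 2230. Spi1, which encodes PU.1, an antagonist of GATA1, was at 134 ± 14.5 in circulating and 91.7 ± 19.9 in endogenous libraries (SD, n = 3 each; 0.56, adjusted p = 0.0675). The other carbonic anhydrases gave 0 calls of 5 (2 unadjusted, 0 by voom), and 1 rose without circulating replicate 3. Of 9 other globin genes and chaperones only Hba-a2 was in the table analysed here, and it was not called (adjusted p = 0.674).

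Genes of other programmes moved across the same groups. Beside them, 5.33% of all genes tested were called higher in circulating over endogenous libraries. In irradiated over endogenous libraries 0.603% were called in either direction. Granulocyte and monocyte progenitor genes had 8 of 12 that rose in circulating over endogenous and 5 of 12 in irradiated over endogenous libraries, and their summed values were 13570 to 40960 in circulating, 8144 to 17070 in irradiated and 2437 to 3459 in endogenous libraries. The second of these counts was 0 without irradiated replicate 1 or 3 or endogenous replicate 1 or 2, and 2 without endogenous replicate 3. Proliferation genes had 13 of 15 that rose in circulating over endogenous and 5 of 15 in irradiated over endogenous libraries, with sums of 4790 to 6323, 4421 to 5291 and 2945 to 3169 in circulating, irradiated and endogenous libraries. The count of 13 was 7 to 9 without circulating replicate 3, irradiated replicate 1 or any endogenous library. The count of 5 was 0 without irradiated replicate 1 or 3 or endogenous replicate 1 or 2, 1 without endogenous replicate 3, and 8, 9 and 12 without circulating replicates 1, 2 and 3. With sample weights, or with only the irradiated and endogenous libraries in the fit, it was 13. Over all genes tested, irradiated over endogenous libraries gave 83 calls in the main fit and 897 with sample weights. That number was 6 to 265 with 1 library left out, and it was also above 83 with only those groups in the fit. Mast cell and basophil genes, of which 1 of 8 rose in circulating over endogenous libraries, summed to 124 to 1136 in circulating, 143 to 284 in irradiated and 96.4 to 121 in endogenous libraries. Circulating replicate 1 had the sum of 124, and without it 8 of 8 rose. Without that library 2230 genes were called over all genes tested, in either direction, against 1189 in the main fit. Megakaryocyte and platelet genes, which share regulators with red cells, had 0 of 13 that rose (1 without circulating replicate 1 or 3) and 1 that fell in circulating over endogenous libraries, with sums of 608 to 838 in circulating, 946 to 974 in irradiated and 937 to 1012 in endogenous libraries. The part of these programmes in the erythroid values was not tested.

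**Figure D4:**
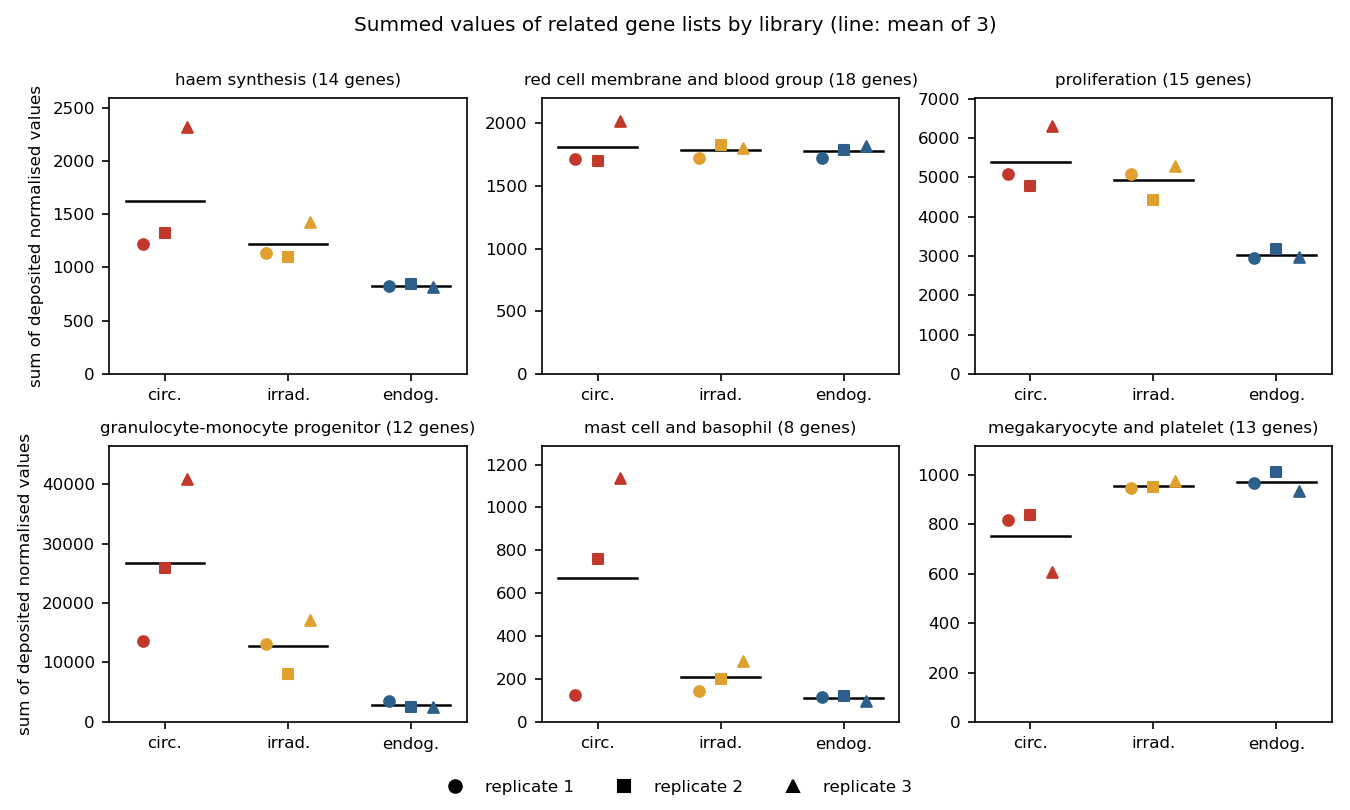
Summed deposited normalised value (y axes, linear, from 0) of 6 gene lists in each library, with symbols by replicate number and lines at the mean of 3; the membrane list holds 18 genes in the table, of which 17 were tested. Haem synthesis sums run from 1219 to 2320 in circulating, 1101 to 1430 in irradiated and 819 to 841 in endogenous libraries, and circulating replicate 3 is the highest point in 5 of the 6 panels.

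In the erythroid lists too replicate 3 stood high. Circulating replicate 3 was the highest of 9 libraries for 8 of 14 haem genes, 13 of 17 membrane genes and 14 of 20 progenitor genes. It was the highest for 19.0% of all genes tested. Among the irradiated libraries replicate 3 was the highest for 12 of 14, 14 of 17 and 14 of 20 genes of the same lists. The share over all genes tested was 34.0%. The irradiated libraries held 23224928 to 27012345 recovered counts.

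The genes most alike to each member over the 9 libraries were taken by Pearson r of log2(value + 1) among 10277 candidates whose mean on that scale reached 2. For Gata1 they were Acsl5 (r = 0.991), Nubp2 (0.983) and Pde12 (0.982), and for Car1 they were Wdr55 (0.975), Acsl5 (0.972) and Gata1 itself (0.971). For Klf1 they were Lyar (0.979), Mrpl58 (0.979) and Lsm6 (0.975), for Epor Gfi1b (0.979), Ccdc86 (0.977) and Orc2 (0.960), and for Tfrc D6Wsu163e (0.987), Blvra (0.975) and Tifab (0.968). Ermap was most like C1qtnf12 (0.968), and Car2 had the weakest best match, Tasp1 (0.938). Hba-a1 was most like its copy Hba-a2 (0.978), Hbb-bs like Sptbn1 (0.964) and Hbb-bt like Bcl2l2 (0.948). Acsl5, a fatty acid activating enzyme, was at 348, 461 and 507 in circulating, 381, 390 and 458 in irradiated, and 326, 310 and 308 in endogenous libraries, the same ordering of libraries within each group as Gata1 on a narrower scale.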

How the data were processed

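Expression was measured by RNA sequencing of sorted marrow LSK cells in 9 libraries, 3 in each of 3 groups taken from the labels. The deposited values are a normalised signal per gene, not counts: each is an estimated count plus 0.5 divided by a scaled library size, as the values of each column show. Named without role or order, per the submitters' processing notes, are the tools CASAVA, RSEM 1.3.1 and limma and the build mm10, and neither annotation nor scaling is stated in these sources. Estimated counts were recovered from the smallest value of each column, and these depths cover counting error only, since amplified reads with no molecular identifier are not separate molecules. A count of 0 corresponds to a signal of 0.0182 to 0.0376. All 9 columns were mapped to samples, and 0 were left unmapped.

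Symbols and coordinates came from GENCODE on GRCm38, which matched 14405 genes and left 56 without a symbol. Values were analysed as log2(value + 1), which understates changes of low genes, with limma 3.58.1 in R 4.3.3 (trend and robust moderation, all 9 libraries in 1 fit, no covariates). Genes with a value of at least 1 in at least 3 libraries were tested, 13771 in all. Benjamini-Hochberg adjustment ran over all of them, with calls at an adjusted p under 0.05. The fit was tested on simulated data. Alternatives were a pseudocount of 0.5, no filter, scaling to library size, sample weights, only the compared groups, voom, a replicate block, and leaving out each library. The members and lists were chosen with earlier results of these data known. Named genes were the 10 members, called genes of each list (up to 6) or else the most abundant, and the 3 genes most like each member; Alas2, Gfi1b, Kit, Ly6a and Hba-a2 were added after their values were seen. Other genes that the rule selects are given as counts or are not reported here. Replicate numbers in the labels were not used to pair the libraries, and the check given with the alternatives cannot tell whether they do. Promoters came from RefSeq, build GRCm38.p6, and coding sequences from GENCODE transcripts.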

Additional observations from a re-analysis of the deposited data

How the results depend on the processing

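Across the 17 alternatives most counts of calls moved, and several uncalled fold changes turned sign. In circulating over endogenous libraries 1189 genes were called, against 494 with sample weights, 252 with only the 2 groups compared and 180 without circulating replicate 3 and irradiated replicate 3 (the last chosen after seeing the data). Leaving out 1 library gave 262 to 2230: omitting circulating replicate 1 gave 2230 and circulating replicate 3 gave 530, the irradiated libraries gave 634, 701 and 653 in the order of their numbers, and the endogenous ones 262, 301 and 484. Scaling to library size gave 1153 genes but turned the split to 337 higher and 816 lower, against 734 higher and 455 lower, with the median of all genes at -0.22 in place of -0.041; the 10 erythroid genes kept their signs under it. The count of erythroid genes called in circulating over endogenous libraries was 2, and it was 0 with library-size scaling, sample weights, only the 2 groups, voom, and without both replicates 3. It ranged from 0 to 6 when 1 library was left out: 6 without circulating replicate 1, 1 without circulating replicate 2, 1 without irradiated replicate 3, and 0 without any other library.

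In circulating over irradiated libraries 4 genes were called, against 11 with library-size scaling, 8 with voom and 9 with the replicate block, and 3 to 134 when 1 library was left out (134, 7 and 9 without circulating replicates 1, 2 and 3). The erythroid count was 0 throughout. In irradiated over endogenous libraries 83 genes were called, against 897 with sample weights, 781 with only the 2 groups and 32 without both replicates 3. Leaving out 1 library gave 6 to 265: in the order of their numbers, omitting circulating libraries gave 265, 138 and 243, irradiated ones 7, 32 and 6, and endogenous ones 6, 7 and 28. The erythroid count in this comparison was 0, against 2 with sample weights, 3 with only the 2 groups, and 0 to 1 when 1 library was left out. The cause was not tested.

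Signs of uncalled values turned when 1 library was left out. In circulating over irradiated libraries the ranges were -0.17 to 0.88 for Gata1, -0.22 to 0.91 for Klf1, -0.33 to 1.10 for Epor, 0 to 1.54 for Car1, -0.043 to 0.18 for Car2, -0.87 to 1.775 for Hbb-bs and -0.165 to 0.57 for Hbb-bt. Ermap ran from -0.13 to 1.36 in irradiated over endogenous libraries, and Hba-a1 from -1.49 to 0.27 in circulating over endogenous libraries. In circulating over irradiated libraries voom gave -0.445 for Hbb-bs. Without both replicates 3 Epor was at -0.10 in that comparison, and Ermap at -0.13 in irradiated over endogenous libraries.

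Libraries of the same number in the circulating and irradiated groups share a code. Their deviations from the group means correlated at 0.050, 0.031 and 0.182, and those of unlike numbers at -0.167 to 0.106. With 3 libraries per group this check cannot tell whether the numbers pair the libraries, and the main fit used no pairing. With the replicate block 1147 genes and 3 erythroid genes (Tfrc added, adjusted p = 0.0481) were called in circulating over endogenous, and 105 genes and 0 erythroid genes in irradiated over endogenous libraries.

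Groups of 3 libraries were not tested for outlying libraries, and low genes such as Epor and the globins rest on 0 to 1601 recovered counts per library.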
